A study of Mus musculus with 18 samples.

Results

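Genes of G2 and mitosis were followed in RNA of the left ventricle from mice that carry a cyclin D2 transgene and from wild-type mice. The 40 genes were a fixed list of names, matched to the Ensembl identifiers of the deposited tables by symbol, and they stand among 38355 identifiers in all. All 40 were found, and all 40 passed the filter on low counts that left 14876 genes for testing. They were ordered by the step of mitosis that they serve, with 6 genes of entry, 6 of the spindle, 7 of chromosome condensation, 14 of the centromere and checkpoint and 7 of cytokinesis.

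The 18 libraries, 1 per sample, formed 4 groups on the (DBA/2J x C3HeB/FeJ)F1 background. Mice of the first 3 groups were MHC-cycD2 transgenic: 5 samples came from cycD2 Shunt mice, 3 from cycD2 TAC mice (replicates 1, 2 and 4) and 5 from cycD2 sham mice. The fourth group was 5 WT samples, for which the labels give no operation. The Shunt joins aorta and vena cava and loads the ventricle with volume, while TAC ties the transverse aorta and loads it with pressure. The labels say that the aorta was tied less tightly than in earlier work. Operations were done at 8 weeks of age in mice of both sexes, and the sex of a sample is not labelled. Both procedures have a sham version in the labels, and which of them the sham mice underwent is not stated. The MHC promoter drives the transgene in heart muscle cells, whereas the RNA is that of the whole tissue. Sham against WT therefore joins the transgene with the operation, and the tests measure the spread between samples, part of which may be technical.

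Entry into mitosis is driven by cyclin A and cyclin B bound to the kinase CDK1, with help from the kinases PLK1 and Aurora A. Motor proteins and microtubule-binding proteins then build the spindle, condensins and topoisomerase II compact the chromosomes, and kinetochores at the centromeres attach them to microtubules. A checkpoint holds the anaphase-promoting complex back until every chromosome is attached, and a contractile ring then splits the cell. Transcription of these genes is low in resting cells and peaks in G2 and mitosis, when the MuvB core acts with B-Myb and FOXM1. Heart muscle cells of adult mice divide very rarely. In RNA of whole tissue, fewer cells of a type and less RNA per cell cannot be told apart.

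Ccnd2 (ENSMUSG00000000184; chromosome 6, 127125162 to 127152193 in GRCm38) encodes cyclin D2, and its RNA was at 17740 to 22210 CPM in the Shunt libraries and 21130 to 30480 CPM in the sham libraries, against 140.5 to 189.0 CPM in WT. CPM are counts scaled to library size with TMM factors. TAC replicates 1 and 4 had 22050 and 25840 CPM, but the library labelled cycD2 TAC replicate 2 had 228.2 CPM, close to the WT level. Counts of called genes with TAC are therefore given with and without that library. Total counts in genes were 19297821 to 30594075 per library, and no pair of libraries of a group was a duplicate. Y-linked genes were near 0 in every Shunt library and in TAC replicates 1 and 2, and expressed in TAC replicate 4, in every sham and in every WT library. The clock gene Arntl lay above Dbp in TAC replicates 1, 2 and 4, sham replicates 1 and 2 and WT replicates 1 to 3, and below it in the other libraries. Heart muscle markers were abundant in every library, with 8 genes summing to 53310 to 91010 CPM.

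Promoters were read for 35 of the 40 genes, as 38 windows of 250 bases before to 50 bases after a start of transcription (RefSeq, GRCm38.p6). The windows were searched on both strands for the CHR hexamer TTTGAA, or TTCAAA in reverse, which MuvB complexes bind, and for the CCAAT box, or ATTGG in reverse, which NF-Y binds. The motifs can share bases, as a CHR and a CCAAT match did in 1 place (Cdca8) and a pair of CCAAT matches on opposite strands in 1 (Ube2c). The hexamer was in 31 of the 38 windows (81.6%), against 17.9% of all 32851 promoter windows, and the CCAAT box was in 29 (76.3%), against 37.4%. Both were in 26 windows (68.4%), against 6.95% of all promoter windows. The median GC content was 59.8% in the members' windows and 52.7% over all windows. Birc5, Ncaph, Nuf2 and Nusap1 had neither motif. A match is a description of letters and not a measured site. The 6 windows shown belong to genes whose values carry the results that follow: Plk1, Ccnb2 and Ttk, which rose with TAC, Ncapd2, which was higher in sham than in WT, Cenpf, which went the other way with TAC, and Nuf2, which rose with TAC and held neither motif. Capitals mark the motif letters, and each sequence runs 5′ to 3′ toward the gene.
Plk1, chr7:122159185-122159484, strand +: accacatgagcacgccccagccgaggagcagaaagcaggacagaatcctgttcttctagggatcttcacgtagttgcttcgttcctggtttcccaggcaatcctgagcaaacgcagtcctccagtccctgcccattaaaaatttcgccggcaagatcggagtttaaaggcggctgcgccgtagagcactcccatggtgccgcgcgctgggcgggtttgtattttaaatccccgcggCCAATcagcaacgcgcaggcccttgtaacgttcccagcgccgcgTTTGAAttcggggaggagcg
Ccnb2, chr9:70421505-70421804, strand -: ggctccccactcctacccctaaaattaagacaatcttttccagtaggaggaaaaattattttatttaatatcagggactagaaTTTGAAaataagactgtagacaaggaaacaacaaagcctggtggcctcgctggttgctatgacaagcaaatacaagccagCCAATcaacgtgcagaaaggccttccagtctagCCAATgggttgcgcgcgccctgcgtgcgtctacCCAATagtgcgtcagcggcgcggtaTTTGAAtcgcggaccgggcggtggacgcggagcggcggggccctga
Ttk, chr9:83834439-83834738, strand +: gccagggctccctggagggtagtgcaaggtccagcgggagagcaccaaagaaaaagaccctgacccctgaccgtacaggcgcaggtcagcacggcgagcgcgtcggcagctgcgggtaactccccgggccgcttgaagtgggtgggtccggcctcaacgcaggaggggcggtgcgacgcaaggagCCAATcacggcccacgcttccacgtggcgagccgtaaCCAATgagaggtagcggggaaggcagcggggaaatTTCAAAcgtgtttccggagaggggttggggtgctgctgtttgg
Ncapd2, chr6:125191537-125191836, strand -: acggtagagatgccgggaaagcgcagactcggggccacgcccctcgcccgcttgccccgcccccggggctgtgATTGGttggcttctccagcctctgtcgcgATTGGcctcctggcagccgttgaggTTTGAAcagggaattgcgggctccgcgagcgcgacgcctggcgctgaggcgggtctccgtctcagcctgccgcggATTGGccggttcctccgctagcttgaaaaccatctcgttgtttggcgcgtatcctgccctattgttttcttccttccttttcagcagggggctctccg
Cenpf, chr1:189688037-189688336, strand -: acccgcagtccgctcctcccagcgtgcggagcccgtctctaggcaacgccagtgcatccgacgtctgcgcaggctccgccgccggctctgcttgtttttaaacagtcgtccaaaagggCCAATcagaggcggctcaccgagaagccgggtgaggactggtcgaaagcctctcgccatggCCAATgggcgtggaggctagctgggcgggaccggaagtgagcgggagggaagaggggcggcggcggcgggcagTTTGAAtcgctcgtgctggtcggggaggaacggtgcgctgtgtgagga
Nuf2, chr1:169531415-169531714, strand -: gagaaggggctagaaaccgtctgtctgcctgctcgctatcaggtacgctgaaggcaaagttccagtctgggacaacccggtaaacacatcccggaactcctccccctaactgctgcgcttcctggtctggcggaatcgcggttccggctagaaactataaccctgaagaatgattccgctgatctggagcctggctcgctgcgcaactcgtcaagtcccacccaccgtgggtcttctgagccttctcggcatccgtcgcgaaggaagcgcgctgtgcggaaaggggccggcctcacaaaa

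The first base of the 39 CHR matches had a median position of -5, counted in bases from the start of transcription, and 31 of the 39 lay between 100 bases before and 50 bases after it. The 66 CCAAT matches had a median first base at -69.5, and 43 of them lay within the 100 bases before it. For windows of Aurka, Kif11, Kif23, Kif2c and Smc2 and a window of Cep55, the bases after the start were not found in a GENCODE transcript of the gene. Positions in those windows are thus less certain. In Plk1 both motifs lay close together, whereas Ncapd2 held its CHR hexamer further upstream, between CCAAT boxes in reverse orientation. Cenpf held the hexamer and a pair of CCAAT boxes, as Ttk did.

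**Figure D1:**
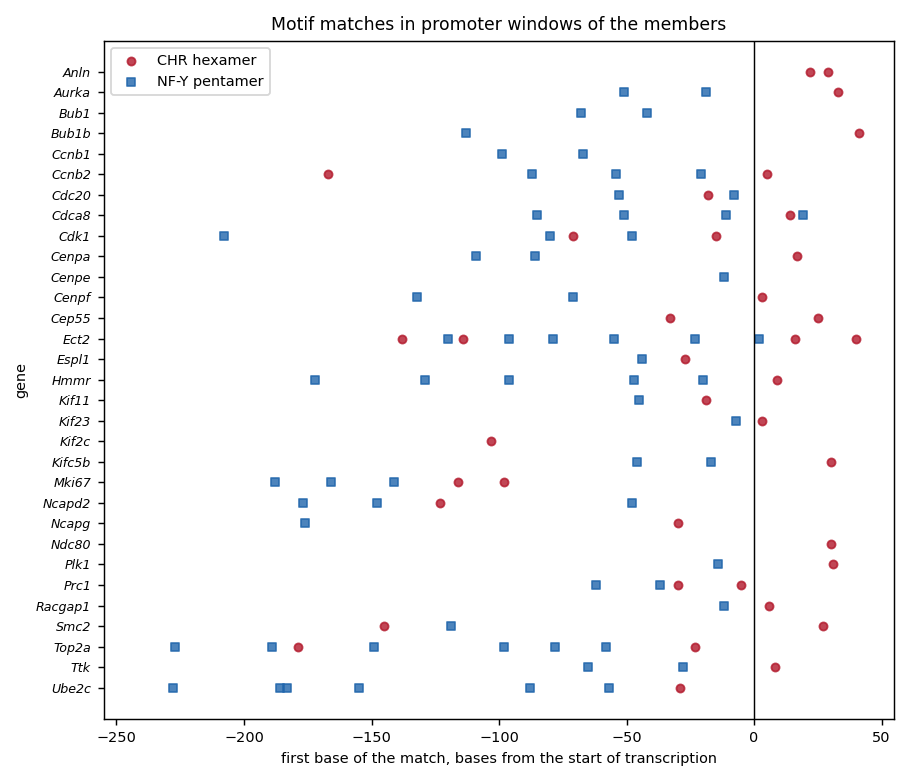
Positions of the CHR hexamer (circles) and the CCAAT box bound by NF-Y (squares) in the promoter windows of the members with a match, 1 row per gene, with the x axis in bases from the start of transcription. Most CHR matches lie near the start, with a median first base at -5, and most CCAAT boxes lie upstream of that.

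Levels between genes were compared per kilobase of exon, as FPKM computed from the CPM and the GENCODE exon length. In WT ventricles Cenpa, the histone H3 variant of centromeres, stood highest at 8.51 ± 0.81 FPKM (SD, n = 5). The condensin genes Smc4 and Ncapd2 followed at 3.83 ± 0.28 and 3.22 ± 0.21 FPKM, and Cenpf at 2.26 ± 0.72 FPKM. The other 36 members lay between 0.0463 FPKM for Ccnb1 and 1.32 FPKM for Smc2. In sham ventricles Smc4 stood first at 9.16 ± 0.51 FPKM, and Cenpa, at 8.31 ± 1.69 FPKM, did not stand apart from it beyond the spread (SD, n = 5 each). Smc4, Cenpa and Ncapd2 held the first 3 places in the Shunt, TAC and sham groups. The lowest count of any member in any library was 1, for Ccnb1 in a WT library, and the highest was 1880, for Smc4. Counting error is thus a large part of the spread for the lowest genes.

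**Figure D2:**
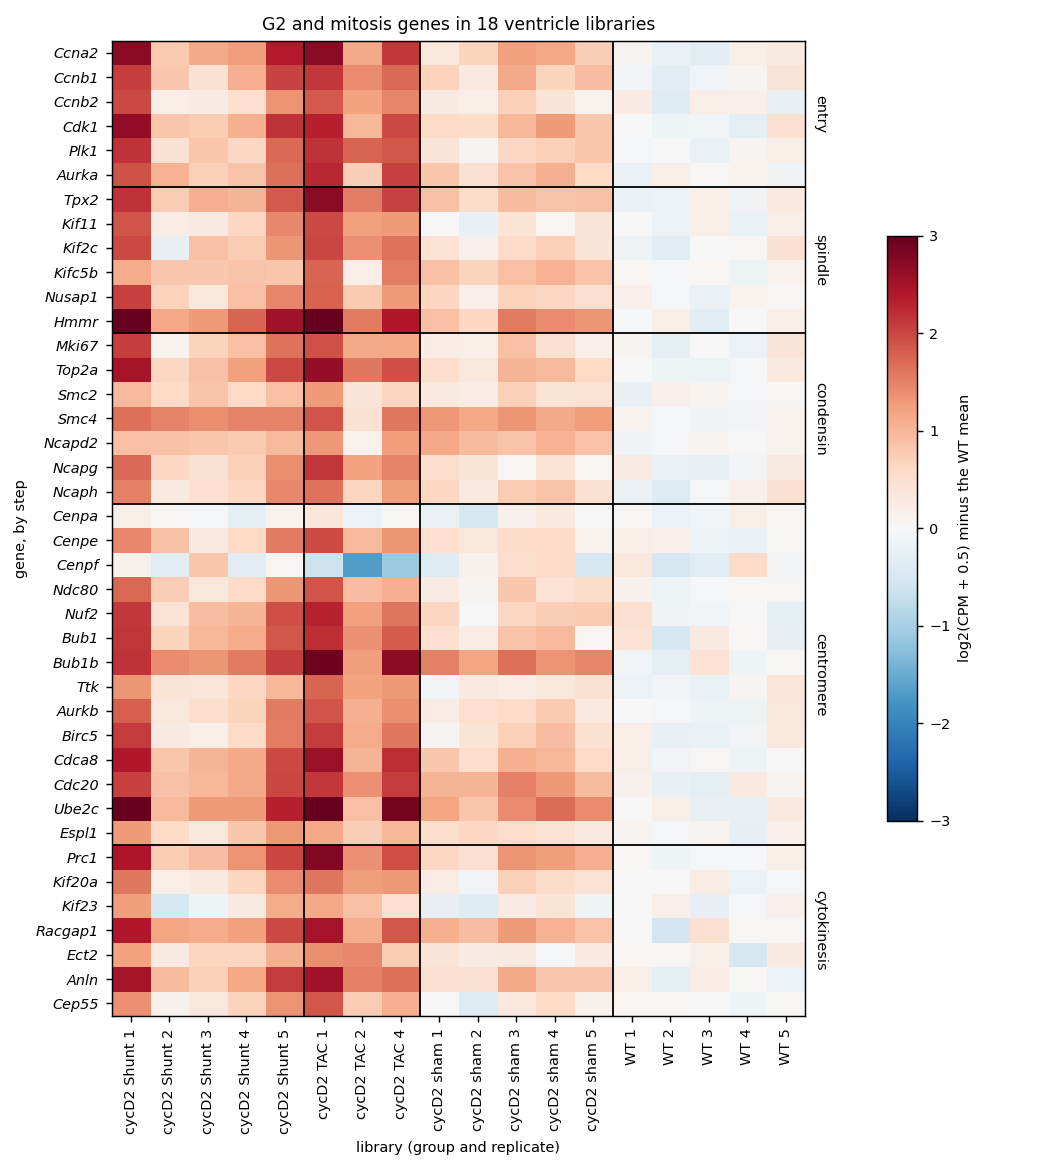
Heat map of log2(CPM + 0.5) minus the WT mean for the 40 members (rows, by step) in the 18 libraries (columns, by group and replicate). Red is above the WT mean and blue below. Shunt replicates 1 and 5 and TAC replicates 1 and 4 are redder than the other libraries in most rows, and Cenpf is blue in the 3 TAC libraries.

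In sham ventricles 15 of the 40 members were higher than in WT and none was lower. Calls were made in edgeR's quasi-likelihood test over all 14876 genes, at a Benjamini-Hochberg adjusted p under 0.05. Over all genes, 13.5% were called higher and 14.9% lower. The members' median log2 fold change was 0.79, against -0.014 over all genes tested, and 39 of 40 were positive. The groups did not overlap, with sham higher, for 19 members, against 10.6% of all genes. The called members came from every step: 2 of 6 entry genes, 3 of 6 spindle genes, 3 of 7 condensation genes, 5 of 14 centromere genes and 2 of 7 cytokinesis genes. The largest change was that of Bub1b, a checkpoint kinase of the kinetochore, with a log2 fold change of 1.72 ± 0.30 (SE), or 3.29-fold.

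Condensin genes had the smallest p values in this comparison. Smc4, an ATPase subunit shared by both condensins, was at 63.5, 57, 52.8, 56.3 and 56.8 CPM in Shunt replicates 1 to 5 and at 75, 27.6 and 60.5 CPM in TAC replicates 1, 2 and 4. It was at 49.9, 45.4, 50.7, 44.6 and 48.1 CPM in sham replicates 1 to 5, against 21.6, 19.4, 18.6, 18.7 and 21.4 CPM in WT replicates 1 to 5. Every sham library was above every WT library for Smc4, and its log2 fold change was 1.26 ± 0.17 (SE; adjusted p = 6.11e-05). Ncapd2, a regulatory subunit of condensin I, was at 38, 37.2, 36.1, 35.1 and 39.9 CPM in Shunt replicates 1 to 5 and at 50.5, 21.6 and 48.5 CPM in TAC replicates 1, 2 and 4. It was at 44.9, 39.2, 36.6, 41.9 and 37 CPM in sham replicates 1 to 5, against 18.5, 19.2, 21.3, 20.3 and 21.5 CPM in WT replicates 1 to 5. The sham and WT libraries did not overlap, and the log2 fold change was 0.98 ± 0.15 (adjusted p = 0.000203). The library labelled TAC replicate 2 had Ncapd2 near the WT level and had Smc4 nearer to WT than to sham. The third called gene of the step was Smc2, the partner ATPase of Smc4, with a log2 fold change of 0.44 (adjusted p = 0.0335). Mki67, a coat protein of mitotic chromosomes, Top2a, Ncapg and Ncaph had log2 fold changes of 0.42, 0.75, 0.50 and 0.68 and did not pass the test.

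Among centromere genes, Bub1b led. Bub1b was at 7.77, 4.41, 4.12, 4.92 and 7.22 CPM in Shunt replicates 1 to 5 and at 13.3, 3.87 and 11.2 CPM in TAC replicates 1, 2 and 4. It was at 4.75, 3.7, 5.29, 4.15 and 4.56 CPM in sham replicates 1 to 5, against 1.25, 1.03, 1.97, 1.18 and 1.38 CPM in WT replicates 1 to 5. All sham libraries were above all WT libraries, and the adjusted p was 0.000457. Cdc20, which activates the anaphase-promoting complex, rose by 1.39 ± 0.28 (adjusted p = 0.00125) and Ube2c, the ubiquitin-conjugating enzyme of that complex, by 1.51 (0.0238). Cdca8, the Borealin subunit of the chromosomal passenger complex, rose by 1.04 (0.0411) and Espl1, the protease separase, by 0.63 (0.035). Cenpa was at a log2 fold change of -0.04 and Cenpf, a large kinetochore protein that binds microtubules, at 0.08, and neither passed the test.

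Of the spindle genes, Kifc5b, Hmmr and Tpx2 were higher in sham than in WT. Kifc5b, a kinesin-14 motor, was at 1.58, 1.18, 1.17, 1.23 and 1.2 CPM in Shunt replicates 1 to 5 and at 2.71, 0.592 and 2.28 CPM in TAC replicates 1, 2 and 4. It was at 1.26, 1.02, 1.29, 1.46 and 1.24 CPM in sham replicates 1 to 5, against 0.498, 0.412, 0.491, 0.362 and 0.535 CPM in WT replicates 1 to 5. Sham and WT did not overlap, and the log2 fold change was 1.43 ± 0.31 (adjusted p = 0.0024). Kifc5b has a near-identical copy, Kifc1, and reads of the pair may be split or lost, so both values are uncertain. Kifc1 itself had a log2 fold change of 1.29 (adjusted p = 0.0128). Hmmr, a microtubule-binding protein of the spindle, rose by 1.59 (0.0218) and Tpx2, the activator of Aurora A on spindle microtubules, by 0.94 (0.0202). In the remaining steps Ccnb1 (cyclin B1) rose by 1.71 (0.0304), Aurka by 0.96 (0.031), Racgap1, a subunit of centralspindlin, by 1.14 (0.0114) and Prc1, which bundles the microtubules of the midzone, by 1.10 (0.024). The sham and WT libraries overlapped for Ccnb1, whose counts are the lowest of the list.

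Calls of 6 members in sham against WT held without each library in turn: Kifc5b, Smc4, Ncapd2, Bub1b, Cdc20 and Racgap1. The calls of the other 9 ended without at least 1 library. Without WT replicate 1, without WT replicate 3 or without sham replicate 3, 9 members were called. Over all genes 10.5%, 11.4% and 11.6% were then called higher. Within the libraries with Arntl above Dbp (2 sham and 3 WT) 1 member was called, with a median of 0.63. Over all genes 3.3% were called higher there, and the members' count does not exceed that share. Within the other libraries of these groups (3 sham and 2 WT) 5 were called, with a median of 0.85, against 6.42% of all genes. The share of reads outside annotated genes was higher in WT (19.003% to 22.781%) than in sham (14.908% to 17.901%), and 6 of 8 endothelial markers were called lower in sham than in WT. Their part in the result was not tested.

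With TAC, 31 of the 40 members were higher than in sham and 1, Cenpf, was lower, while over all genes 16.4% were called higher and 14.5% lower. The median log2 fold change was 1.24, against 0.007 over all genes tested, and 39 of 40 were positive. Without overlap between the groups, 25 members were higher, against 14.5% of all genes, and 1 was lower, against 13.6%. Every cytokinesis gene was called, 7 of 7, as were 5 of 6 entry genes, 5 of 6 spindle genes and 11 of 14 centromere genes. Of the condensation genes 3 of 7 were called, and their median log2 fold change was 0.70, against medians of 1.38 for entry, 1.5 for the spindle, 1.24 for the centromere and 1.21 for cytokinesis. The largest change was that of Ncapg, a subunit of condensin I, whose log2 fold change was 1.82 ± 0.35 (SE), or 3.54-fold, at an adjusted p of 0.000836. Without the library labelled TAC replicate 2, 7 of 7 condensation genes were called higher, with a median of 0.923. The counts were then 6 of 6 for entry, 6 of 6 for the spindle, 11 of 14 for the centromere and 6 of 7 for cytokinesis. Their medians were 1.589, 1.675, 1.45 and 1.235 in the same order, and over all genes 10.9% were called higher. The differences between steps were not tested.

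**Figure D3:**
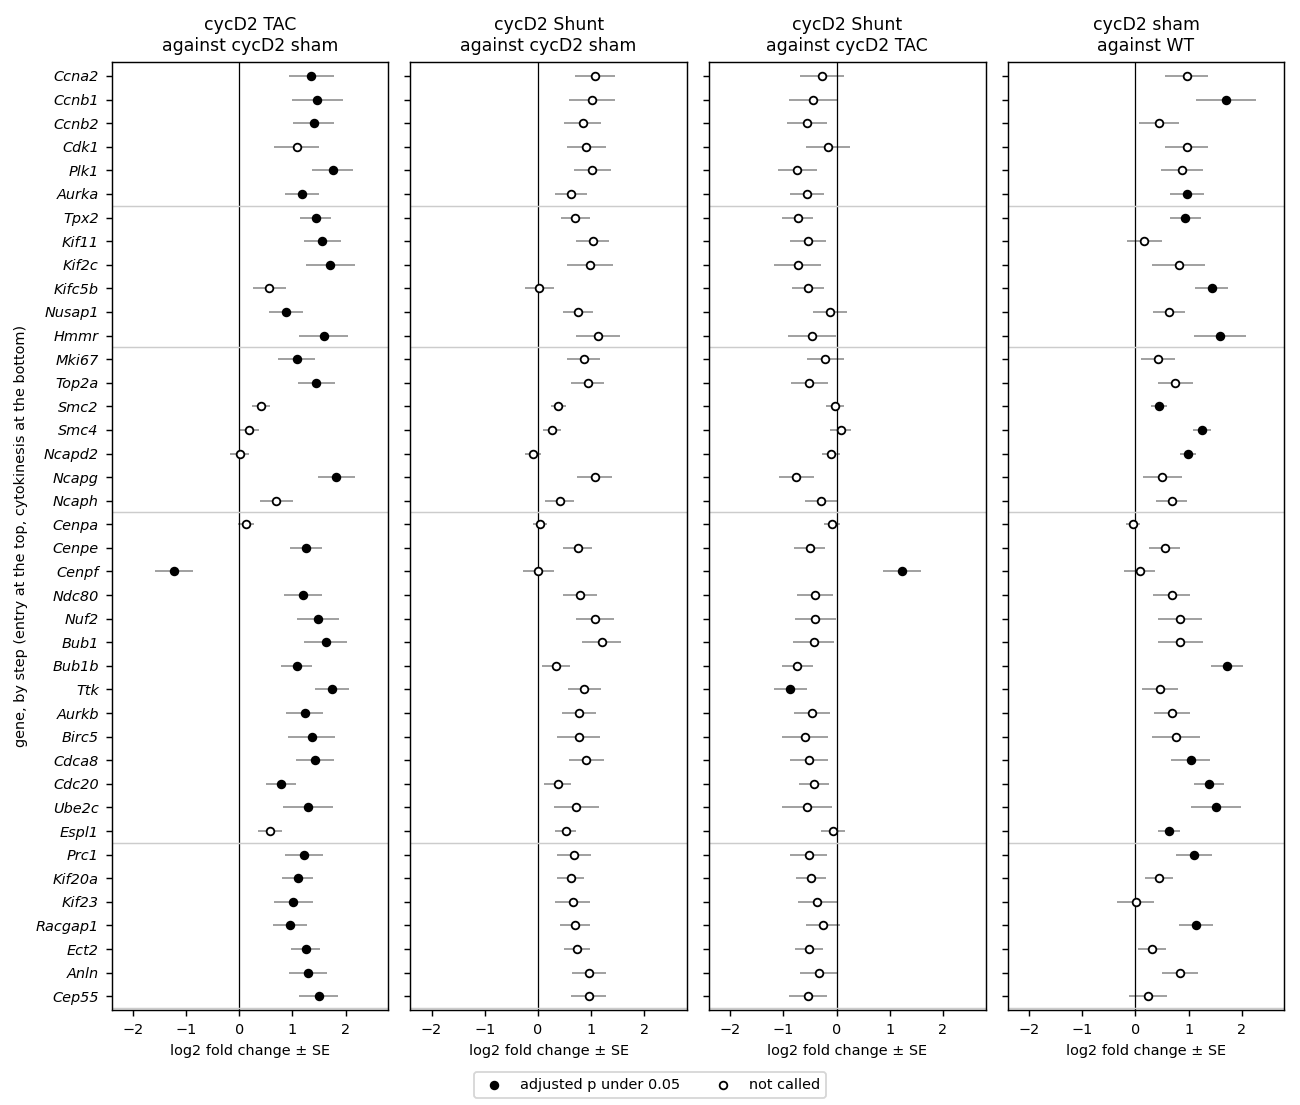
Log2 fold changes ± SE of the 40 members (rows, by step) in the 4 comparisons (panels). Filled circles passed an adjusted p of 0.05 in edgeR's quasi-likelihood test over all genes, and open circles did not. The filled circles number 32 for TAC against sham, none for Shunt against sham, 2 for Shunt against TAC and 15 for sham against WT.

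Entry genes with TAC were led by Plk1. Plk1, the kinase that promotes entry and spindle assembly, was at 4.35, 0.979, 1.41, 1.16 and 2.99 CPM in Shunt replicates 1 to 5 and at 4.35, 3.12 and 3.44 CPM in TAC replicates 1, 2 and 4. It was at 0.916, 0.641, 1.15, 1.28 and 1.42 CPM in sham replicates 1 to 5, against 0.548, 0.567, 0.442, 0.633 and 0.713 CPM in WT replicates 1 to 5. All TAC libraries were above all sham libraries, and its log2 fold change was 1.75 ± 0.38 (SE), adjusted p = 0.00198. Among the Shunt libraries replicates 1 and 5 were in or near the TAC range and replicates 2, 3 and 4 within the sham range. Ccnb2 (cyclin B2) was at 6.12, 1.43, 1.48, 1.86 and 3.74 CPM in Shunt replicates 1 to 5 and at 5.51, 3.35 and 4.12 CPM in TAC replicates 1, 2 and 4. It was at 1.53, 1.43, 2.25, 1.69 and 1.28 CPM in sham replicates 1 to 5, against 1.5, 0.773, 1.43, 1.36 and 0.936 CPM in WT replicates 1 to 5. The TAC libraries again lay above all sham libraries, with a log2 fold change of 1.40 ± 0.39 (adjusted p = 0.0105). Ccnb1, Ccna2 (cyclin A2) and Aurka rose by 1.47, 1.36 and 1.18 (adjusted p = 0.0258, 0.0213 and 0.0107). Cdk1 had a log2 fold change of 1.08 and an adjusted p of 0.0582.

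Spindle genes were led by Tpx2. Tpx2 was at 11.8, 4.16, 5.43, 5.1 and 9.43 CPM in Shunt replicates 1 to 5 and at 17.5, 7.53 and 10.9 CPM in TAC replicates 1, 2 and 4. It was at 4.62, 3.54, 4.87, 4.47 and 4.6 CPM in sham replicates 1 to 5, against 1.89, 1.96, 2.65, 2.08 and 2.9 CPM in WT replicates 1 to 5. All TAC libraries were above all sham libraries, and TAC replicate 2 was the lowest of the 3. The log2 fold change was 1.44 ± 0.29 (SE; adjusted p = 0.00142). Kif11 (Eg5), the motor that pushes spindle poles apart, rose by 1.56 (0.00262), Kif2c (MCAK), which takes microtubules apart at kinetochores, by 1.71 (0.00949) and Hmmr by 1.59 (0.0149). Nusap1, which bundles spindle microtubules, rose by 0.88 (0.0447). Kifc5b had a log2 fold change of 0.57 with TAC and did not pass the test, with TAC replicates 1 and 4 above every sham library and replicate 2 below every one. Of the condensation genes, Ncapg, Top2a (1.45, adjusted p = 0.00483) and Mki67 (1.08, 0.0264) rose, whereas Smc4, Ncapd2, Smc2 and Ncaph had log2 fold changes of 0.19, 0.01, 0.41 and 0.70 that did not pass the test.

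Of the centromere genes, Ttk (Mps1), the kinase that starts the spindle checkpoint, had the smallest p. Ttk was at 1.77, 0.694, 0.671, 0.894 and 1.3 CPM in Shunt replicates 1 to 5 and at 2.56, 1.58 and 1.72 CPM in TAC replicates 1, 2 and 4. It was at 0.349, 0.604, 0.552, 0.639 and 0.752 CPM in sham replicates 1 to 5, against 0.299, 0.361, 0.295, 0.452 and 0.669 CPM in WT replicates 1 to 5. TAC lay wholly above sham, and the log2 fold change was 1.74 ± 0.32 (SE), or 3.35-fold, at an adjusted p of 0.000608. The kinetochore genes Bub1, Nuf2, Cenpe and Ndc80 rose by 1.62, 1.48, 1.25 and 1.20 (adjusted p = 0.00545, 0.00915, 0.004 and 0.0151). The chromosomal passenger genes Cdca8, Birc5 (survivin) and Aurkb (the kinase Aurora B) rose by 1.42, 1.36 and 1.23 (0.00663, 0.0263 and 0.0115). Bub1b rose by 1.08 (0.0101), Cdc20 by 0.79 (0.0402) and Ube2c by 1.28 (0.0482). Espl1 and Cenpa had log2 fold changes of 0.58 and 0.13 and did not pass the test.

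Cenpf went the other way. Cenpf was at 36.8, 26.4, 60.1, 26.4 and 34.8 CPM in Shunt replicates 1 to 5 and at 21.7, 10.2 and 15.2 CPM in TAC replicates 1, 2 and 4. It was at 25.4, 36.8, 48.3, 50.5 and 23.2 CPM in sham replicates 1 to 5, against 41.8, 23.6, 26.8, 50.3 and 31.7 CPM in WT replicates 1 to 5. All TAC libraries were below all sham libraries, and the log2 fold change was -1.23 ± 0.36 (SE; adjusted p = 0.0166). Its levels in Shunt, sham and WT overlapped and varied widely. Without TAC replicate 2, the lowest library, the log2 fold change was -1.01 and the adjusted p 0.0941, so this call rests on that library. It also ended with the Arntl to Dbp difference as a covariate and within the libraries with Arntl above Dbp.

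All cytokinesis genes rose with TAC. Ect2, the exchange factor that activates RhoA at the cell's equator, was at 2.92, 1.31, 1.84, 1.82 and 2.63 CPM in Shunt replicates 1 to 5 and at 3.43, 3.59 and 2.02 CPM in TAC replicates 1, 2 and 4. It was at 1.44, 1.28, 1.33, 0.959 and 1.33 CPM in sham replicates 1 to 5, against 1.05, 1.03, 1.18, 0.543 and 1.29 CPM in WT replicates 1 to 5. TAC lay wholly above sham, its log2 fold change was 1.25 ± 0.27 (SE), adjusted p = 0.00197, and TAC replicate 2 was the highest of the group, which was so for no other member. Cep55, a midbody protein of abscission, was at 3.12, 1.02, 1.27, 1.71 and 3.06 CPM in Shunt replicates 1 to 5 and at 4.59, 1.85 and 2.45 CPM in TAC replicates 1, 2 and 4. It was at 0.872, 0.566, 1.24, 1.6 and 1.02 CPM in sham replicates 1 to 5, against 0.947, 0.928, 0.884, 0.769 and 0.936 CPM in WT replicates 1 to 5. TAC again lay wholly above sham, with a log2 fold change of 1.49 ± 0.37 (adjusted p = 0.00492). Anln (anillin), a scaffold of the contractile ring, and Prc1 rose by 1.28 and 1.21 (adjusted p = 0.0115 and 0.0167). The midzone kinesins Kif20a and Kif23 rose by 1.10 and 1.01 (0.00741 and 0.0441), and Racgap1 by 0.96 (0.032).

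**Figure D4:**
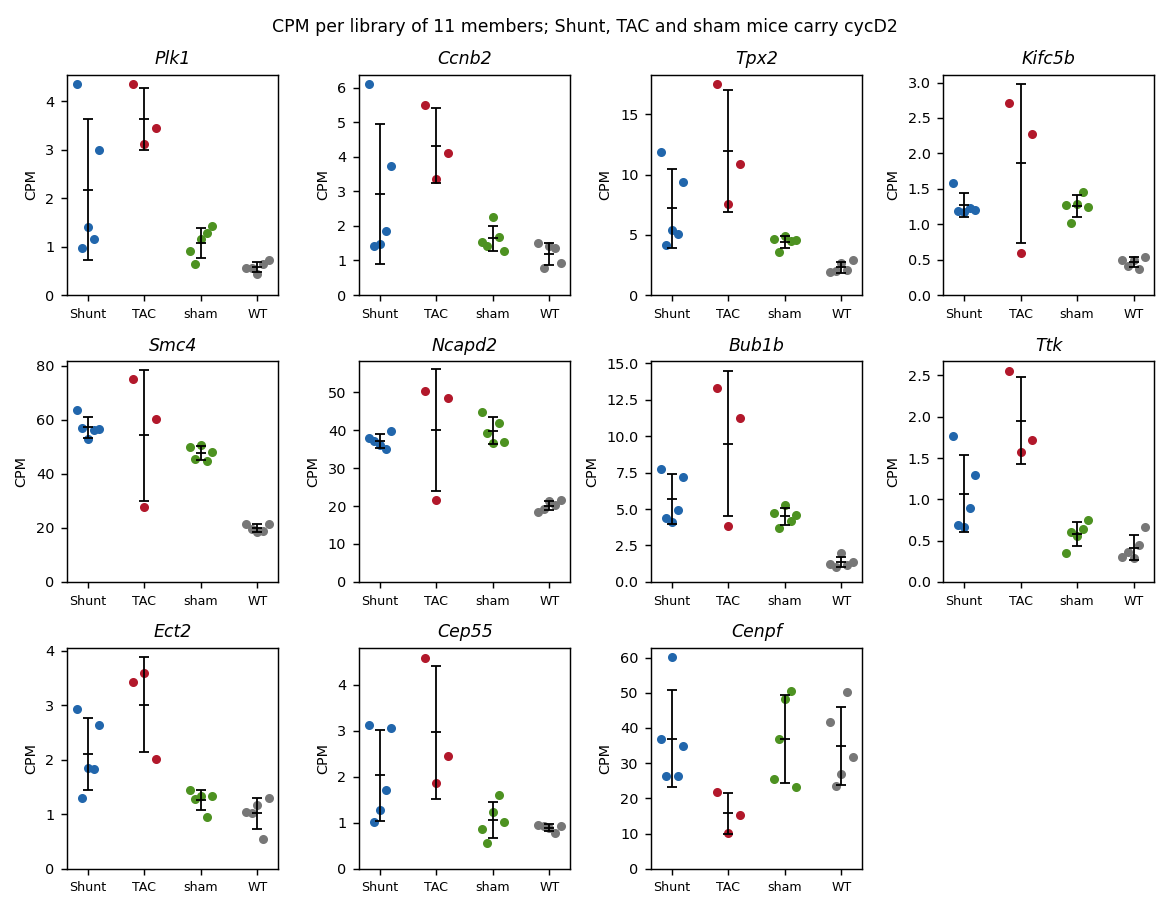
CPM per library of 11 members (panels), by group on the x axis; points are libraries and bars the mean ± SD (n = 5 Shunt, 3 TAC, 5 sham and 5 WT libraries). Plk1, Tpx2, Ttk and Ect2 are higher in every TAC library than in any sham library, Smc4, Ncapd2, Kifc5b and Bub1b differ between sham and WT without overlap, and Cenpf is lowest with TAC.

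Single TAC libraries moved these counts. Without TAC replicate 1, the highest TAC library for 39 of 40 members, 9 members were called higher: Plk1, Tpx2, Kif11, Top2a, Ncapg, Bub1, Ttk, Kif20a and Ect2. Over all genes 12% were called higher without TAC replicate 1. The library labelled TAC replicate 2 was the lowest TAC library for 38 of 40 members. Without it, 36 members were called higher and none lower, with a median of 1.46. Over all genes 10.9% were then called higher and 10.8% lower. Those 36 took in Kifc5b, Smc4 and Ncapd2, with log2 fold changes of 0.98, 0.49 and 0.29 (adjusted p = 0.00181, 0.00121 and 0.0208), and Cdk1, Smc2 and Ncaph, while Kif23 was then at an adjusted p of 0.11. With the replicate number as a block, the calls of Ube2c and Kif23 ended (adjusted p = 0.0641 and 0.0612). With the level of Y-linked genes as a covariate no member was called in either direction, and over all genes 1.57% were called higher, while the members' median stayed at 1.16. TAC replicate 4, in which Y-linked genes were expressed as in sham, was above every sham library for 37 of 40 members. This is a count on 1 library, and the share of all genes was not computed for it. The part of the Y-linked difference was not tested.

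Markers of other cells moved with TAC as well. Of 8 fibroblast markers 7 were called higher with TAC, and their summed level was 2174 to 5046 CPM in TAC libraries, against 1049 to 1821 CPM in sham libraries. The highest fibroblast sum was in TAC replicate 2, the library with Ccnd2 near the WT level. Endothelial markers summed to 1658 to 1870 CPM with TAC, against 1298 to 1652 CPM in sham, and 4 of 8 were called higher. Of 8 smooth muscle and pericyte markers 4 were called higher. Without TAC replicate 2 the fibroblast, endothelial, and smooth muscle and pericyte markers called higher numbered 4, 1 and 3. Of 8 heart muscle markers 2 were called higher and 4 lower, or 2 and 2 without that library, with sums of 53310 to 78820 CPM in TAC, against 76620 to 91010 CPM in sham. Of 5 erythroid markers tested 1 was called lower, and none without that library, with sums of 16.57 to 35.94 CPM in TAC, against 40.28 to 431.9 CPM in sham. Of the lymphocyte markers tested 1, Cd79b, was called higher, and its call ended without that library (adjusted p = 0.0523). None of 8 macrophage markers was called (3 at an unadjusted p under 0.05), with sums of 224.3 to 354.6 CPM in TAC and 205.2 to 280.2 CPM in sham. Neutrophil markers summed to at most 4.529 CPM in any library, with Ly6g, Retnlg, Camp and Ngp at 0 to 4 counts, and lymphocyte markers to at most 6.331 CPM. The part of these cells in the mitotic RNA was not tested.

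With the Shunt, none of the 40 members was called against sham in either direction by edgeR's quasi-likelihood test, and none by DESeq2 or limma-voom. Few genes of any kind were called, 0.108% higher and 0.134% lower. The members' log2 fold changes had a median of 0.76, against 0.004 over all genes, and 39 of 40 were positive. At an unadjusted p under 0.05, 29 members were higher and none lower, against 7.50% and 7.07% of all genes. The lowest adjusted p was 0.182. Entry genes had a median of 0.96, spindle genes 0.87, centromere genes 0.75, cytokinesis genes 0.69 and condensation genes 0.41. Bub1, Hmmr, Nuf2 and Ccna2 had log2 fold changes of 1.19 ± 0.36, 1.13 ± 0.41, 1.08 ± 0.36 and 1.07 ± 0.38 (SE). Smc4 was the only member whose Shunt libraries lay wholly above sham, against 1.79% of all genes, with a log2 fold change of 0.26 ± 0.17, and none lay wholly below it, against 2.30% of all genes. Every Shunt library lacked expression of Y-linked genes and every sham library had it, so that the Shunt and this difference cannot be told apart. TAC and the Shunt share the sham libraries, so that their values are given side by side and not as separate support for each other.

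The Shunt libraries were split. Replicates 1 and 5 were the 2 highest for 37 of 40 members, and both were above every sham library for 36. Shunt replicates 2, 3 and 4 were all at or below the highest sham library for 19 members. Of the 40 members, 37 and 36 were above every sham library in Shunt replicates 1 and 5. In replicates 2, 3 and 4 these counts were 3, 8 and 19. Shares of all genes were not computed for these counts, so whether other genes split in the same way was not tested. The mean of log2(CPM + 0.5) over the members was 3.20, 1.93, 2.04, 2.20 and 2.91 in Shunt replicates 1 to 5 and 3.33, 2.33 and 2.84 in TAC replicates 1, 2 and 4. It was 1.87, 1.72, 2.17, 2.13 and 1.91 in sham replicates 1 to 5, against 1.40, 1.22, 1.33, 1.32 and 1.49 in WT. On this mean Shunt replicates 1, 4 and 5 and all TAC libraries were above every sham library, replicate 4 only narrowly, and every sham library was above every WT library. Without Shunt replicate 1 the members' median log2 fold change against sham was 0.47, and without replicate 5 it was 0.63.

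**Figure D5:**
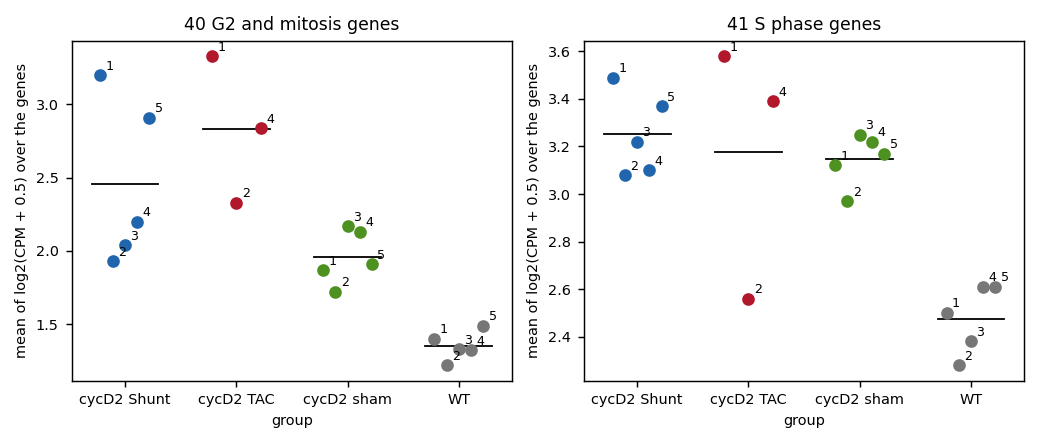
Mean of log2(CPM + 0.5) over the 40 G2 and mitosis genes (left) and over 41 S phase genes (right), by group. Points are libraries, numbered by replicate, and lines are group means. For the mitotic genes Shunt replicates 1 and 5 stand apart from replicates 2, 3 and 4, and for S phase genes TAC replicate 2 lies in the WT range.

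The spread between libraries was taken as a coefficient of variation. Its median over the members was 52.3% in Shunt (n = 5) and 39.1% in TAC (n = 3), against 22.5% in sham and 19.4% in WT (n = 5 each). Over all tested genes it was 11.7%, 14.4%, 11.4% and 11.3% in the same groups. The members are mostly low genes, for which counting error adds to this value. In Shunt the member with the least spread was Ncapd2 at 4.92% and the one with the most was Birc5 at 75.5%. Among Shunt replicates 1 and 5, erythroid markers, mostly haemoglobin genes, summed to 559.2 and 288.4 CPM, against 27.9 to 66.14 CPM in replicates 2 to 4. In sham and WT libraries the same sum was 40.28 to 431.9 and 187.4 to 336.5 CPM. Smooth muscle and pericyte markers summed to 2071 and 1845 CPM in Shunt replicates 1 and 5, against 1086 to 1415 CPM in replicates 2 to 4. Endothelial markers summed to 1785 and 1610 CPM in replicates 1 and 5, against 1365 to 1592 CPM in replicates 2 to 4. Fibroblast markers were at 1699 and 1581 CPM in replicates 1 and 5 and at 1116 to 1669 CPM in replicates 2 to 4. The part of these cells in the split was not tested.

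Set directly against TAC, the Shunt ventricles differed in 2 of 40 members. Cenpf was higher in Shunt than in TAC, by 1.23 ± 0.36 on the log2 scale (SE), at an adjusted p of 0.0184, and Ttk was lower, by -0.87 ± 0.31 (adjusted p = 0.042). Over all genes 13.3% were called higher and 13.6% lower. The median log2 fold change of the members was -0.46, against -0.009 over all genes, and 38 of 40 were negative. Of the 38 members that did not pass the test, Tpx2 and Bub1b came closest, with log2 fold changes of -0.73 ± 0.29 and -0.74 ± 0.29 (adjusted p = 0.0688 and 0.0702). A p above the threshold does not show that both loads had the same level of a gene. Both calls ended without the library labelled TAC replicate 2 and without TAC replicate 4, and that of Ttk also without TAC replicate 1 or Shunt replicate 2, 3 or 4. Without TAC replicate 2, 5 other members were called lower in Shunt than in TAC, Bub1b, Kifc5b, Ncapd2, Aurka and Tpx2, with log2 fold changes of -1.11, -0.96, -0.40, -0.92 and -0.97. Over all genes 9.03% were called lower without TAC replicate 2, and the members' count is near that share. Without Shunt replicate 1, the highest Shunt library, 11 members were called lower, against 14.8% of all genes. The TAC libraries had Arntl above Dbp and the Shunt libraries the reverse, so that the load and the clock phase cannot be told apart here. Called lower in Shunt than in TAC were 6 of 8 fibroblast, 4 of 8 smooth muscle and pericyte, 3 of 8 endothelial and 3 of 8 macrophage markers. Without TAC replicate 2 these counts were 3, 2, 2 and 0. Of 8 heart muscle markers 3 were called higher and 2 lower, or 0 and 2 without that library. Of 5 erythroid markers tested 2 were called higher, and 0 without that library. No neutrophil or lymphocyte marker was called. Over all genes 13.3% were called higher and 13.6% lower, or 8.95% and 9.03% without TAC replicate 2. Fibroblast markers summed to 1116 to 1699 CPM in Shunt, against 2174 to 5046 CPM in TAC, and the part of these cells in the difference was not tested.

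Genes of S phase, the step before, gave a different set of counts from the same fits. Of 41 such genes, among them the Mcm helicase and the DNA polymerases, 27 were called higher in sham than in WT, against 13.5% of all genes. Their median log2 fold change was 0.65. With TAC 2 were called higher and 2 lower than in sham, with a median of 0.02, where the mitotic genes had 31 and 1 and a median of 1.24. Over all genes 16.4% were called higher with TAC and 14.5% lower, and the S phase counts lie below these shares. Without the library labelled TAC replicate 2 the S phase genes had 9 higher and 1 lower and a median of 0.29, against 36 and none and a median of 1.46 for the mitotic genes, while over all genes 10.9% were called higher and 10.8% lower. With the Shunt none of the S phase genes was called against sham by edgeR's quasi-likelihood test, with a median of 0.12. At an unadjusted p under 0.05 in that test, 3 were higher and 0 lower, against 7.50% and 7.07% of all genes. The difference between the lists was not tested. Their mean of log2(CPM + 0.5) was 3.08 to 3.49 in Shunt libraries, 3.58, 2.56 and 3.39 in TAC replicates 1, 2 and 4, 2.97 to 3.25 in sham and 2.28 to 2.61 in WT. TAC replicates 1 and 4 were above every sham library on this mean and TAC replicate 2 was in the WT range, while on that of the mitotic genes it was above every sham library.

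A further 108 genes of the same pathway were fitted with the 40. In sham against WT 40 were called higher and 2 lower, with TAC against sham 33 higher and 9 lower, with the Shunt against sham none (28 higher and 2 lower at an unadjusted p under 0.05), and in Shunt against TAC 10 higher and 6 lower. The background of calls in each direction was 13.5% and 14.9% for sham against WT, 16.4% and 14.5% for TAC against sham, and 13.3% and 13.6% for Shunt against TAC, and the counts in Shunt against TAC lie below these shares. Without the library labelled TAC replicate 2, 45 were called higher and 3 lower with TAC, against 10.9% and 10.8% of all genes. In Shunt against TAC 4 were then higher and 10 lower, against 8.95% and 9.03% of all genes. Among regulators of G2, Foxm1, the transcription factor of mitotic genes, averaged 6.08 ± 1.62 CPM (SD, n = 3) with TAC, against 2.88 ± 0.37 CPM in sham (n = 5), a log2 fold change of 1.08 (adjusted p = 0.0111). Lin37 and Lin52, subunits of the MuvB core, went in opposite directions with TAC, by 0.50 and -0.81 (adjusted p = 0.00443 and 0.00109). Wee1, the kinase that holds CDK1 inactive, was lower with TAC than in sham, by -1.57 (0.0313), and higher in Shunt than in TAC, by 1.95 (0.0125); the part of the clock phase, which differed within sham, was not tested. Without TAC replicate 2 both calls of Wee1 ended (adjusted p = 0.103 and 0.0563), and those of Foxm1, Lin37 and Lin52 with TAC held (0.0264, 0.0288 and 0.00742). In sham against WT Lin9, Bora, which activates PLK1 through Aurora A, and Lin54 were higher, by 1.18, 1.21 and 0.63 (0.000233, 0.000279 and 0.00253).

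Of the other spindle genes, Kif18b, Kif4 and Ska1 rose with TAC by 1.77, 1.64 and 1.57, and Fam83d and Ckap2 were higher in sham than in WT by 1.88 and 1.48. Smc1a, Rad21 and Smc3, the core of the ring that holds sister chromatids together, were higher in sham than in WT by 0.68, 0.50 and 0.36, and Rad21 was lower with TAC than in sham, by -0.32 (adjusted p = 0.00643), and by -0.21 without TAC replicate 2 (0.0419). Sgo1, which protects centromeric cohesin, and Cdca5 (sororin) rose with TAC by 1.68 and 1.48. Of the 15 further condensin and cohesin genes, 3 were called higher with TAC and 4 lower (Rad21, Ncapd3, Wapl and Smc3). In Shunt against TAC 7 of the 15 were called higher and none lower, against 13.3% and 13.6% of all genes. Without TAC replicate 2 the counts were 4 and 1 with TAC, and 3 and 0 in Shunt against TAC. Of 30 further centromere genes 12 were higher in sham than in WT, led by Pmf1, a subunit of the Mis12 complex of kinetochores, with 1.28, and 10 were higher and 1 lower with TAC (16 and 1 without TAC replicate 2), led by Zw10 and Kntc1 with 0.58 and 1.58. The anaphase-promoting complex, whose subunits also act outside mitosis, had 1 of 17 genes higher and 2 lower with TAC, with a median of -0.003, against 16.4% and 14.5% of all genes, and none in either direction without TAC replicate 2. Of 9 further cytokinesis and centriole genes, Arhgap11a, Cit and Plk4 rose with TAC by 1.39, 0.96 and 0.68, and Stil and Iqgap3 were higher in sham than in WT by 2.06 and 1.65. The calls with TAC of Kif18b, Kif4, Ska1, Rad21, Sgo1, Cdca5, Zw10, Kntc1, Arhgap11a, Cit and Plk4 held without TAC replicate 2.

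Some members share exon sequence with a gene on the other strand, and the library kit did not mark strand. The shared part was 29.3% of the exon length for Kif20a with Cdc23, 22.8% for Ube2c with Tnnc2, 13.4% for Ncapg with Lcorl, 12.5% for Ccna2 with Exosc9 and 11.1% for Prc1 with Rccd1, and the values of these genes are uncertain to that extent. Tnnc2 had at most 9 counts in any library.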

How the data were processed

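RNA of left ventricle myocardium was sequenced in 18 libraries. Per the labels' protocols, the RNeasy Fibrous Tissue kit was used for extraction and TruSeq RNA v2, a kit without strand marks, for the libraries. The authors deposited raw read counts per Ensembl gene, with no normalization. The submitters' processing notes name STAR 2.3.0e, HTSeq 0.6.1p1, CASAVA 1.8.2, SAMtools 0.1.19, DESeq2 1.8 and FastQC, and the builds GRCm38 and mm10. The annotation release and the strand setting of the counting are not given in the sources used here. GENCODE M21 named 36602 of 38355 identifiers. The 5 summary lines of each table were left out, and reads with no feature were 13.644% to 22.781%.

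Genes were filtered with filterByExpr (minimum count 10), scaled by TMM and tested with edgeR 4.0.16, by its robust quasi-likelihood test with 1 mean per group over all 18 libraries, in R 4.3.3, with Benjamini-Hochberg adjustment over 14876 genes. Each SE was taken as the size of the log2 change divided by the root of its F value. The members, the further gene lists and the alternatives were chosen with earlier results of these data known. Every called member is named, and values per library are given for the 2 members of each step with the smallest p in any comparison and for those called in both directions. From the further lists the text names some of up to 3 genes per list, comparison and direction, taken by smallest p. Alternatives were DESeq2 1.42.0, limma-voom (limma 3.58.1), other scaling, filters, covariates, subsets and leaving out each library. The method was tested on simulated data. Residuals of same-numbered TAC and sham libraries correlated at 0.159, 0.144 and 0.205 for replicates 1, 2 and 4, above the limit of 0.1. These numbers were therefore taken as possible pairs. The main tests carry no block, so their values with TAC do not use the pairs. A block on the replicate number was fitted only as an alternative, over all 18 libraries. It is given where it ends a call.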

Additional observations from a re-analysis of the deposited data

Results flagged for a closer look

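Among the 120 sets of 4 to 10 libraries examined, each of 1 member in 1 group, 3 held a library far from the others, fewer than the 1 in 20 that chance gives. Kifc5b was at 1.58 CPM in Shunt replicate 1, with the other Shunt libraries at 1.17 to 1.23 CPM. Nuf2 was at 0.717 CPM in sham replicate 2, with the other sham libraries at 1.38 to 1.59 CPM. Aurkb was at 1.20 CPM in WT replicate 5, with the other WT libraries at 0.723 to 0.847 CPM. The effects of the Shunt and of TAC, both taken against sham, differed by the test of the difference itself for Cenpf, by a log2 value of 1.23, and for Ttk, by -0.87.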

How the results depend on the processing

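The median log2 fold change of the members kept its sign in each comparison under every alternative run, at 0.63 to 0.90 for sham against WT, 0.90 to 1.5 for TAC against sham, 0.47 to 0.92 for Shunt against sham and -0.71 to -0.15 for Shunt against TAC. No member called in a comparison reversed its direction under any alternative, and no member was called in Shunt against sham under any. Members called higher in sham than in WT numbered 15, against 6 by limma-voom and 26 (of 39 tested) with both groups fitted alone. They numbered 1 within libraries with Arntl above Dbp, 5 within those with Dbp above Arntl, and 9 to 19 without single libraries. Over all genes 13.5% were called higher in sham, against 12.5% by limma-voom and 16.6% with both groups fitted alone. The share was 3.3% with Arntl above Dbp, 6.42% with Dbp above Arntl and 10.5% to 15.8% without single libraries. The members' count by limma-voom is near its share, and that with Arntl above Dbp does not exceed it. Members called higher with TAC numbered 31, against 0 with the Y-linked covariate and 9 to 36 without single libraries. The 1 called lower was at 0 with the Y-linked covariate, with the clock covariate and within libraries with Arntl above Dbp, and at 0 to 1 without single libraries. In Shunt against TAC the 1 called higher was at 0 with the Y-linked or the clock covariate and at 0 to 1 without single libraries. Over all genes 13.3% were called higher there, against 12.6% and 7.24% with these covariates and 8.95% to 14.5% without single libraries. The 1 called lower was at 3 by limma-voom, at 0 without the low-count filter, with the Y-linked covariate or with the 2 groups fitted alone, and at 0 to 11 without single libraries. Over all genes the share called lower in Shunt than in TAC was 13.6%, against 13.9% by limma-voom and 6.48% without the low-count filter. It was 13.5% with the Y-linked covariate, 9.95% with the 2 groups fitted alone and 9.03% to 14.8% without single libraries. The cause of the shifts in these counts was not tested.

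With the replicate number as a block, 22 members were called higher in sham than in WT, and 30 higher and 1 lower in TAC than in sham. None was called in Shunt against sham, and 1 higher and 4 lower in Shunt than in TAC. Over all genes the block gave 13.6% higher in sham than in WT, and 15% higher and 12.7% lower in TAC than in sham. In Shunt against TAC it gave 11.2% higher and 11.6% lower, and the members' counts there do not exceed these shares. In the other comparisons residual correlations were not above the limit of 0.1 at every replicate number, so the numbers were not taken as pairs. They were -0.3 to 0.352 in Shunt and sham and, by a narrow margin, 0.0988 to 0.17 in Shunt and TAC. In sham and WT they were 0.278, 0.331, 0.34 and 0.234 for replicates 1, 2, 4 and 5, each most like its own number. Replicate 3 was at -0.164, with Arntl above Dbp in its WT library and below it in its sham library. The part of the clock phase was not tested. In Shunt and TAC each library was most like the one of its own number, as a hint from the data and not from the design. Depth limits the lowest genes: Ccnb1 had 1 to 70 counts per library.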
